A study of Mus musculus with 12 samples.

Results

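Cirbp and Rbm3 are the cold-inducible RNA-binding genes of the mouse, and their mRNA was followed in liver around the light:dark cycle. Both genes were taken by their symbols, so that the members are 2 of the 20069 genes in the table, and both were among the 10198 genes counted as expressed, that is with a signal above 8 in at least 1 sample. The livers came from wild-type male C57BL/6 mice, adults of 3 to 6 months, kept under LD12:12 for at least 2 weeks, and no sample carried a mutation or a drug treatment. Polyadenylated RNA was sequenced every 4 hr from ZT2 to ZT22 (ZT, zeitgeber time in hr after lights on), in 2 independent series of 6 samples, which gives 12 samples and n = 2 at each time point. How many livers went into a sample was not given in the sources used here, so the p-values measure the spread between these samples.

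The signal is in reads per base pair of exon (rpbp), scaled to 40000000 uniquely mapped sequences. The length is that of the exons of all isoforms together, so a comparison between genes also depends on which isoforms are expressed. The deposited file holds normalized signal and no read counts, so no counting error is attached to the values here. Across the 10198 genes, the 2 samples of a time point correlated with r = 0.975 to 0.987 on the log2(rpbp + 1) scale. Hepatocyte markers summed to between 96507 and 176224 rpbp in the 12 samples and lymphocyte markers to at most 13.0 rpbp, as in liver tissue. No marker of any of the 7 cell types looked at was listed at 0 in every sample.

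CIRBP and RBM3 are small proteins with an RNA recognition motif followed by a glycine-rich tail. They are known for being made in larger amounts when cells are cooled mildly and in smaller amounts when cells are warmed, and they bind mRNAs and affect their stability, polyadenylation and translation. Body temperature of the mouse is higher in the dark, active phase than in the light, and CIRBP is known for binding the Clock mRNA in cells exposed to temperature cycles. Cold also acts on the splicing of both genes, through kinases of the CLK family and SR proteins, which a signal summed over all exons does not resolve.

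Cirbp (ENSMUSG00000045193.7) lies on the forward strand of chromosome 10 at chr10:79628730-79635531 of mm9, with 7 annotated transcripts and 2604 bases of exon once these are flattened. No other annotated gene overlaps it, and the next gene on the same strand, 1600002K03Rik, begins after a gap of 157 bases. Rbm3 (ENSMUSG00000031167.8) lies on the reverse strand of the X chromosome at chrX:7716101-7723006, with 12 transcripts and 4698 bases of flattened exon. Its 5′ end overlaps the antisense gene 2900002K06Rik over 452 bases. The authors counted sequences without regard to strand, so that reads of this partner cannot be told apart from those of Rbm3 there.

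The RefSeq promoter table held 1 of the 2 members, Cirbp, with 2 start sites. The sequence before the first start site is shown because cold-responsive control of Cirbp has been placed in its GC-rich promoter. It runs from 250 to 62 bases before the start, stops where the first annotated exon of this region begins, and was located on mm9 by an exact match at chr10:79630334-79630522, forward strand. Capitals mark matches to the GC box GGGCGG, the Sp1 type of site, or to the octamer TCCCCGCC, the mild cold response element.
Cirbp: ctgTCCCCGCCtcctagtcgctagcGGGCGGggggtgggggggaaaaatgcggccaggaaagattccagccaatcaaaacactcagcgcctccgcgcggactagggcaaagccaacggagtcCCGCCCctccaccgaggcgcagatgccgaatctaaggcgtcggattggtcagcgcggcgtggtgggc

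In the 300 bases around this start (250 before it and the rest after it), the GC box occurred 3 times on either strand and the octamer 1 time. The matches did not overlap each other in the stretch shown, and the third GC box runs over its end. Of the 32851 promoters in the table, 35.7% held a GC box and 5.38% the octamer, which was searched for after the sequence had been seen. Neither the E-box CACGTG, present in 7.15% of the promoters, nor the heat shock element GAANNTTC, present in 7.86%, was found at the first or the second start of Cirbp.

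The question put to both genes was whether their mRNA follows the 24 hr cycle, and when it peaks. Rbm3 mRNA was rhythmic by the criteria of the study, with its highest signal at ZT10 and its lowest at ZT2 in both series, while Cirbp mRNA did not meet these criteria. Rbm3 was 48.7 ± 0.537 rpbp at ZT10 and 32.8 ± 1.02 rpbp at ZT2 (SD, n = 2). Cirbp was highest at ZT6 with 30.7 ± 4.50 rpbp and lowest at ZT10 with 19.4 ± 3.68 rpbp. The ratio of Cirbp to Rbm3 varied with time of day over the 12 samples, though its test did not pass in either series alone, and its lowest values were at ZT10.

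The values of Rbm3 in series 1 and series 2 were 33.5 and 32.0 rpbp at ZT2, and 35.7 and 45.5 rpbp at ZT6. At ZT10 they were 49.0 and 48.3 rpbp, and at ZT14 43.4 and 33.6 rpbp. At ZT18 they were 33.6 and 36.1 rpbp, and at ZT22 34.2 and 33.3 rpbp. Both samples of ZT10 lay above the 10 other samples, and the 3 time points from ZT18 through ZT22 to ZT2 stayed within a band from 32.0 to 36.1 rpbp. The 2 series differed by 1.56 to 7.11% of their mean at 4 time points. At ZT6 series 2 was higher by 24.2% of the mean and at ZT14 series 1 was higher by 25.2%, so that the second highest value came before ZT10 in series 2 and after it in series 1.

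Ordered by mean, Rbm3 went from ZT10 to ZT6 (40.6 ± 6.96 rpbp), ZT14 (38.5 ± 6.87), ZT18 (34.9 ± 1.754), ZT22 (33.7 ± 0.651) and ZT2. The gap between ZT10 and ZT6 was 8.06 rpbp, against a pooled SD of 4.09 rpbp (2 samples at each of 6 times). Every other gap between neighbours in this order was smaller than the pooled SD.

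The values of Cirbp in series 1 and series 2 were 32.7 and 22.7 rpbp at ZT2, and 33.9 and 27.5 rpbp at ZT6. At ZT10 they were 16.8 and 22.04 rpbp, and at ZT14 23.3 and 15.9 rpbp. At ZT18 they were 23.2 and 28.8 rpbp, and at ZT22 23.8 and 31.6 rpbp. The 2 series agreed less than for Rbm3: they differed by 20.7 to 38.0% of their mean at every time point, with series 1 higher at ZT2, ZT6 and ZT14 and series 2 higher at ZT10, ZT18 and ZT22. Cirbp was highest at ZT6 and lowest at ZT10 in series 1, but highest at ZT22 and lowest at ZT14 in series 2.

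Ordered by mean, Cirbp went from ZT6 to ZT22 (27.7 ± 5.49 rpbp), ZT2 (27.7 ± 7.04), ZT18 (26.0 ± 4.02), ZT14 (19.6 ± 5.26) and ZT10. The gap between ZT18 and ZT14 was 6.40 rpbp, against a pooled SD of 5.12 rpbp, and every other gap between neighbours was smaller than the pooled SD. The spread between the samples of a time point was 20.3% of the mean for Cirbp, wider than in 84.8% of expressed genes, and 10.7% for Rbm3, close to the median gene at 10.8%.

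**Figure D1:**
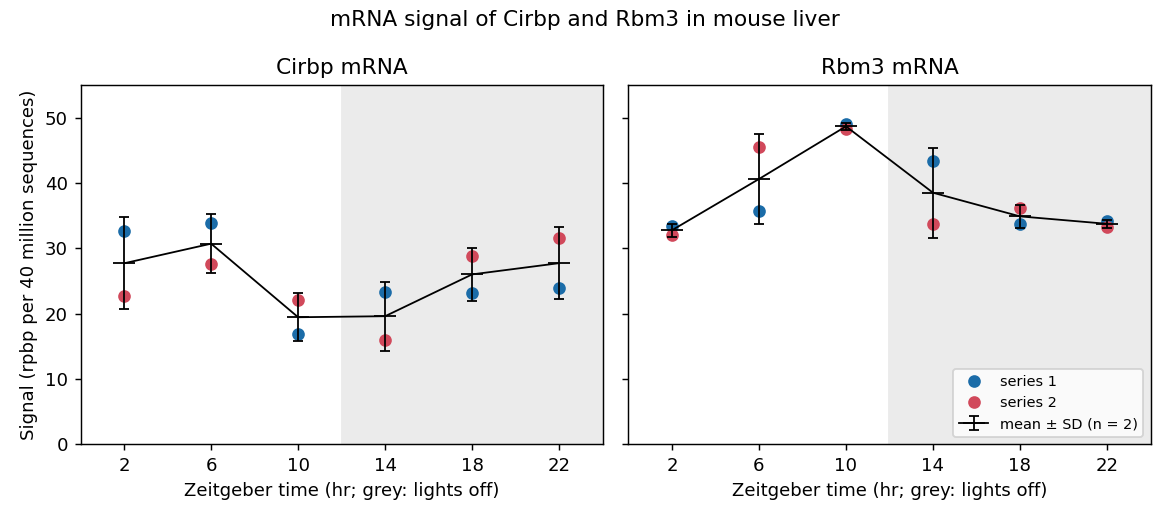
Signal of Cirbp (left) and Rbm3 (right) in rpbp against zeitgeber time in hr. Points are single samples coloured by series, the black line joins the means, bars are the SD (n = 2) and grey marks lights off. The Rbm3 samples of ZT10 sit at 48.3 and 49.0 rpbp above all others, while the Cirbp samples of a time point lie far apart.

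F24 is the share of the variance of the 12 values that lies in the 24 hr Fourier component. A gene was called rhythmic with a permutation p below 0.05 over 100000 random orders of the 12 values, an F24 above 0.45 and an amplitude (highest over lowest value) above 1.5. Rbm3 had an F24 of 0.629, an amplitude of 1.53 and a phase of 10.003 hr, with p = 0.0149 by the permutation test and 0.104 after Benjamini-Hochberg adjustment over the expressed genes. It thus met the 3 criteria, the amplitude by a narrow margin, and was not significant after adjustment. By these criteria 1942 genes, or 19.0% of those expressed, were rhythmic, and 7.89% were strongly rhythmic under the stricter limits of F24 and amplitude that the study also set, which Rbm3 was not. A permutation p below 0.05 alone was reached by 26.5% of expressed genes. With the adjusted p below 0.05 as the only criterion, 5.84% of expressed genes passed.

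Cirbp had an F24 of 0.397, an amplitude of 2.13 and a phase of 1.20 hr, with p = 0.109 by the permutation test and an adjusted p of 0.282. Its amplitude was larger than that of Rbm3 over the 12 values. Between the highest and the lowest of the 6 means it was 1.58, and 1.49 for Rbm3. Without the ZT2 sample of series 2, Cirbp had an F24 of 0.582 (permutation p = 0.0379) and met the 3 criteria. Of the Cirbp variance, 39.7% was in the 24 hr component, 16.02% in the 12 hr component, 2.13% in the 8 hr component and 42.1% between the samples of a time point. For Rbm3 these shares were 62.9, 13.996, 0.883 and 22.2%. The median F24 of expressed genes was 0.310.

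**Figure D2:**
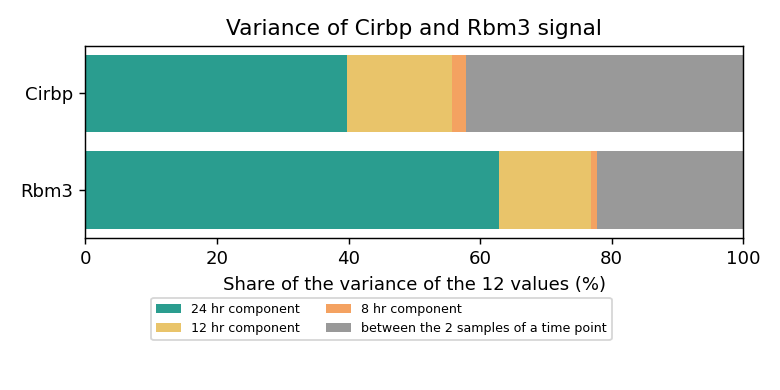
Share (%) of the variance of the 12 values of each gene in the 24, 12 and 8 hr components and between the 2 samples of a time point. The 24 hr share is 39.7% for Cirbp and 62.9% for Rbm3, and the share between samples of a time point is 42.1% and 22.2%.

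Each series taken alone gave the same order of F24 but did not pass the test. For Rbm3 the F24 was 0.762 with a phase of 11.2 hr in series 1 and 0.641 with a phase of 8.78 hr in series 2 (exact permutation p = 0.117 and 0.283 over all 720 orders, the smallest possible being 0.0167). For Cirbp it was 0.544 with a phase of 2.67 hr and 0.431 with a phase of 23.3 hr (exact permutation p = 0.267 and 0.417). The phases of the 2 series lay 2.42 hr apart for Rbm3 and 3.38 hr apart for Cirbp.

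A cosine curve fitted with limma to log2(rpbp + 1) gave the sizes with their errors. The peak-to-trough difference of Rbm3 was 0.48 ± 0.13 (SE) on the log2 scale, a fold of 1.40 with a 95% interval from 1.16 to 1.69, and its peak was at 10.1 ± 0.995 hr. The limma p was 0.00863, with an adjusted p of 0.0726. For Cirbp the difference was 0.58 ± 0.21, a fold of 1.49 with an interval from 1.08 to 2.07, its peak was at 1.01 ± 1.41 hr, and the limma p was 0.0585 with an adjusted p of 0.198. A fitted peak-to-trough difference is never negative, so these intervals, and that of the ratio below, are no test of a rhythm. In this fit 8.61% of expressed genes had an adjusted p below 0.05. The 2 intervals overlapped, and the order of the 2 fitted differences turned without ZT14 of series 2, to 0.44 for Cirbp and 0.56 for Rbm3.

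No step from 1 time point to the next passed the adjusted threshold in limma for either gene. The step of Cirbp from ZT6 to ZT10, its largest in size, was -0.64 ± 0.25 (log2, SE), with an adjusted limma p of 0.347. Rbm3 differed by -0.34 ± 0.14 from ZT10 to ZT14, with an adjusted limma p of 0.282, and by -0.16 without ZT14 of series 2 and -0.52 without ZT14 of series 1. From ZT6 to ZT10, 0.127% of expressed genes rose and 0.108% fell at an adjusted p below 0.05, and from ZT10 to ZT14 0.402% rose and 0.167% fell. From ZT14 to ZT18 these shares were 0.137 and 0.0981%, from ZT18 to ZT22 0.00981 and 0.0294%, and from ZT22 to ZT2 0.657 and 1.02%. The limma F-test over the 6 time points gave an adjusted p of 0.107 for Rbm3 and 0.245 for Cirbp, with 17.6% of expressed genes below 0.05. The difference of Rbm3 between ZT10 and ZT2, its extremes and hence chosen by its values, was 0.56 ± 0.14 (log2, SE).

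The samples of ZT2, where Rbm3 was lowest, differed from those of ZT6 in many genes and from those of ZT22 in far fewer. From ZT2 to ZT6, 10.5% of expressed genes rose and 8.59% fell, against at most 1.02% in either direction at any other step. That 1.02% was the share that fell from ZT22 to ZT2. The sum of the 8 hepatocyte markers had a mean of 98554 rpbp at ZT2 and of 133308 to 168606 rpbp at the other time points. This sum was carried by Alb, albumin, at a mean of 51786 rpbp at ZT2 against 97960 rpbp over all samples: 4 of the 8 markers had their lowest mean at ZT2, while Apoa1 and Serpina1a had their highest there. The sum of the 6 Kupffer cell markers had a mean of 567 rpbp at ZT2 and of 331 to 390 rpbp at the others, with 6 of 6 markers highest at ZT2, and the endothelial sum stayed between 199.6 and 227 rpbp. At ZT10, where Rbm3 was highest, the sum of the 3 erythroid markers in the file had a mean of 794 rpbp, against 392 to 644 rpbp at the other time points. The sample of series 2 carried this mean with 1174 rpbp, the highest sum of all 12, while that of series 1 had 414 rpbp, within the range of the other time points, and Rbm3 was alike in both, at 48.3 and 49.0 rpbp. Alas2, an enzyme of heme synthesis, had its highest and lowest means where Rbm3 did, with 245 rpbp at ZT10 and 175 rpbp at ZT2. In liver tissue, fewer cells of a type and less RNA per cell cannot be told apart, and the part of these markers in the Rbm3 result was not tested. Without both ZT2 samples, Rbm3 had an F24 of 0.603 (permutation p = 0.0445) and an amplitude of 1.47, just short of the criterion, and its phase was 9.31 hr. Leaving out ZT2 of series 2 alone also brought the amplitude of Rbm3 to 1.47 and ended the call.

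Neither gene differed between light and dark beyond the spread of the samples. Rbm3 ranged from 32.0 to 49.0 rpbp (median 40.6) in the 6 samples of the light phase and from 33.3 to 43.4 rpbp (median 33.9) in the 6 of the dark phase, and these ranges overlapped. Light minus dark was 0.17 on the log2(rpbp + 1) scale (exact permutation p = 0.210 over all splits into 6 and 6, two-sided, adjusted p = 0.620). Cirbp ranged from 16.8 to 33.9 rpbp (median 25.1) in the light and from 15.9 to 31.6 rpbp (median 23.6) in the dark. Its difference was 0.07 (exact permutation p = 0.719, adjusted p = 0.919), and leaving out series 1, ZT6 of series 1 or ZT14 of series 2 turned its sign. Of all expressed genes, 7.08% were higher in the light and 5.56% higher in the dark at an unadjusted exact p below 0.05, and 0 passed after adjustment, while limma called 36.

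Over the 12 samples the time courses of the 2 genes differed by the test of their ratio given below, which did not pass in either series alone. Their phases lay 8.80 hr apart, with Cirbp itself not called rhythmic. Rbm3 was highest at the time point where Cirbp was lowest by mean. Rbm3 had the higher signal in 12 of 12 samples, by 1.02-fold at ZT2 of series 1 up to 2.91-fold at ZT10 of series 1. The log2 ratio of Cirbp to Rbm3 was -0.27 ± 0.33 at ZT2, -0.40 ± 0.46 at ZT6 and -1.34 ± 0.29 at ZT10 (SD, n = 2). It was -0.99 ± 0.13 at ZT14, -0.43 ± 0.15 at ZT18 and -0.30 ± 0.32 at ZT22. The 4 samples of ZT10 and ZT14 lay below the 8 others, without overlap.

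The ratio had an F24 of 0.633 with p = 0.0129 by the permutation test and a phase of 23.7 hr. This p stayed below 0.05 when any 1 of the 12 samples was left out (0.00176 to 0.0354). Fitted with limma, its peak-to-trough difference was 0.99 ± 0.23 (log2, SE), a fold of 1.98 with a 95% interval from 1.40 to 2.80. In the ratio of the signals without a pseudocount, on which F24 was computed, any scaling of a library cancels. Left to 1 series, the ratio gave exact permutation p = 0.283 in series 1 and 0.0833 in series 2. Across the 12 samples the log2 signals of both genes had Pearson r = -0.31 (permutation p = 0.328) and Spearman rho = -0.24 (permutation p = 0.452). Pearson r was -0.54 without the 2 samples farthest from the Cirbp median, -0.72 within series 1 and 0.08 within series 2, and Spearman rho was -0.43 within series 1 and -0.20 within series 2 (n = 6 each, no test).

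**Figure D3:**
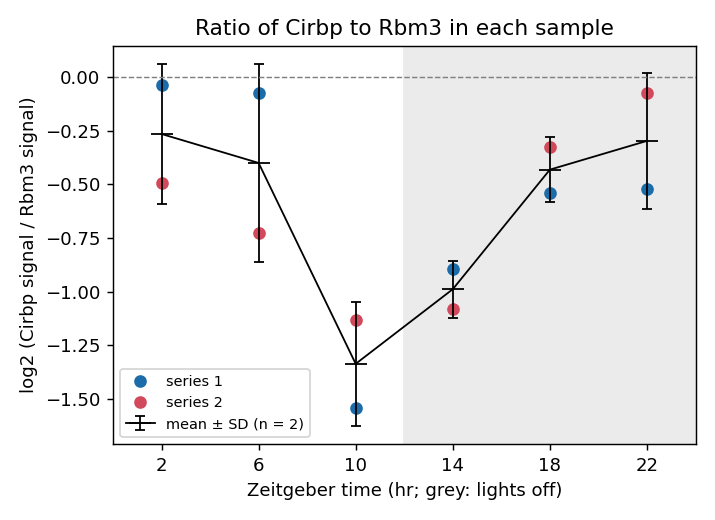
Log2 ratio of Cirbp to Rbm3 signal against zeitgeber time in hr. Points are single samples coloured by series, the line joins the means with the SD (n = 2), and the dashed line marks equal signal. The means reach -1.34 at ZT10 and -0.99 at ZT14, and all 12 samples lie below the dashed line.

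Among the genes that act on cold-inducible expression, 15 of 16 were expressed and 0 were rhythmic, against 19.0% of all expressed genes. None had a permutation p below 0.05 (the lowest was 0.0677), and limma called 0. The median F24 of this list was 0.298, close to that of all expressed genes. Clk1, a temperature-sensitive kinase of SR proteins, had its highest mean of 51.0 ± 7.92 rpbp at ZT6 and its lowest of 37.3 ± 1.07 rpbp at ZT10, with an F24 of 0.060. Hsf1, the heat shock transcription factor, had 14.9 ± 0.905 rpbp at ZT14 and 10.6 ± 1.39 rpbp at ZT6, with an F24 of 0.384.

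The SR proteins, which bind splicing enhancers and are phosphorylated by the CLK kinases, gave 2 rhythmic genes of 12 (16.7%), close to the share of all expressed genes. Srsf7 peaked in the light with a phase of 4.42 hr (F24 0.563) and Srsf4 in the dark with 14.1 hr (F24 0.542), and 0 of the 12 had an adjusted p below 0.05. Srsf5 was 193 ± 13.7 rpbp at ZT6 and 133 ± 0.707 rpbp at ZT10, its extremes by mean, and was not rhythmic (F24 0.270).

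Of the relatives of Cirbp and Rbm3 among glycine-rich and hnRNP proteins, 22 of 25 were expressed and 4 were rhythmic (18.2%), close to the 19.0% of all expressed genes. Dazap1, an RNA-binding protein of germ cells and other tissues, had a phase of 6.81 hr, and Msi2, a Musashi protein that controls translation, one of 0.459 hr. Rbmx, a splicing regulator with a similar RNA recognition motif, had a phase of 23.3 hr. The adjusted permutation p of Dazap1, Msi2 and Rbmx was 0.0953, 0.115 and 0.177.

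Among mRNAs and partners reported for CIRBP or RBM3, 12 of 15 were expressed and 6 were rhythmic (50%), 5 of them strongly, against 19.0% rhythmic and 7.89% strongly rhythmic over all expressed genes. These 5 were core clock genes, which are rhythmic in liver as part of the clock itself. Clock, the CIRBP-bound mRNA, was highest at ZT22 with 37.6 ± 0.877 rpbp and lowest at ZT6 with 17.0 ± 1.16 rpbp, a phase of 21.2 hr (F24 0.871, adjusted p = 0.0271 by the permutation test). Cry1, a repressor of the clock, had a phase of 17.3 hr (F24 0.954), and Arntl, the partner of Clock, one of 21.1 hr (F24 0.914). Per1 and Per2, repressors that partner with the cryptochromes, peaked at 11.3 hr (F24 0.889) and 12.2 hr (F24 0.878), the former 1.32 hr after Rbm3. The sixth, Atr, a DNA damage kinase named here after its values were seen, had a phase of 10.2 hr and an adjusted p of 0.183.

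Heat-induced chaperones, which answer to temperature in the opposite direction to Cirbp and Rbm3, were expressed in 21 of 23 cases. Of these, 13 were rhythmic (61.9%), against 19.0% of all expressed genes, 4 passed the permutation test after adjustment, and the median F24 was 0.580. The phases of the 13 ran from 12.0 to 20.8 hr, all in the dark and all later than the 10.003 hr of Rbm3, although those of Hspd1 and Dnaja1 lay close to lights off. Hspe1 and Hspa4 met the p and F24 criteria and missed only that of amplitude (1.46 and 1.37). Both had phases in the light, at 11.9 hr for Hspe1 and 1.03 hr for Hspa4, the latter opposite to the others. Over all 1942 rhythmic genes, 42.9% had a phase in the dark. Dnaja1, an HSP40 that assists HSP70, was 337 ± 7.98 rpbp at ZT14 and 193 ± 6.51 rpbp at ZT2 (phase 12.2 hr, F24 0.712). Hspd1, the mitochondrial HSP60, was 600.1 ± 40.1 rpbp at ZT14 and 456 ± 55.3 rpbp at ZT22 (phase 12.0 hr, F24 0.811).

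Fkbp4, an immunophilin that works with HSP90, was 247 ± 16.1 rpbp at ZT14 and 169 ± 2.89 rpbp at ZT6 (phase 17.2 hr, F24 0.916). Hspb1, the small chaperone HSP27, was 42.0 ± 9.48 rpbp at ZT18 and 16.3 ± 5.26 rpbp at ZT10 (phase 20.8 hr, F24 0.811), and so was lowest at the time of the Rbm3 peak. The summed signal of the 23 chaperones had means of 4087 to 5095 rpbp at 5 time points and of 7089 rpbp at ZT14, 1 time point after the peak of Rbm3 and at a low of Cirbp. Hspa8, the constitutive HSP70, and Hspa5, the HSP70 of the endoplasmic reticulum, which was not rhythmic (F24 0.165), carried most of this rise, with 1575 and 1680 ± 551 rpbp at ZT14 against means of 855 and 1128 rpbp over all samples. Without these 2 genes the sum was 3834 rpbp at ZT14 and 2794 to 3305 rpbp at the other time points.

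**Figure D4:**
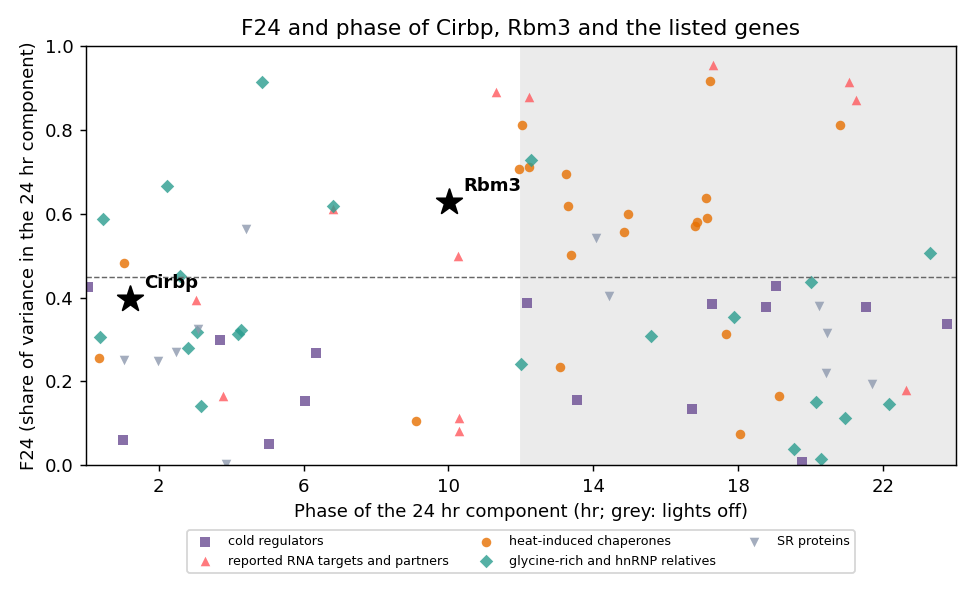
F24 against the phase in hr of the 24 hr component for Cirbp and Rbm3 (stars) and the expressed genes of 5 lists (coloured symbols). The dashed line is the F24 criterion of 0.45 and grey marks lights off. The chaperones above the line that met all criteria have phases from 12.0 to 20.8 hr, after Rbm3 at 10.003 hr, and the cold regulators all lie below the line.

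The genes most like each member were named by Pearson r over the 12 samples among 8952 others with a mean of at least 8 rpbp, as a description. For Cirbp these were Bcat2 (r = 0.88), which transaminates branched-chain amino acids, 2010209O12Rik (0.85), Gcgr (0.84), the glucagon receptor, Psmd4 (0.84), a ubiquitin receptor of the proteasome, and Trp53 (0.83), the p53 transcription factor. Psmd4 was rhythmic with a phase of 1.20 hr and was highest at ZT2 (116 ± 11.5 rpbp) and lowest at ZT10 (86.9 ± 13.4 rpbp). Bcat2 had, like Cirbp, its highest mean at ZT6 (16.5 ± 1.78 rpbp) and its lowest at ZT10 (8.74 ± 0.0849 rpbp). The most opposite were LOC628308 (-0.86), Mmaa (-0.84), a protein of vitamin B12 metabolism, and Slain2 (-0.82), a microtubule protein.

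For Rbm3 the most like were Mrpl45 (r = 0.93), a protein of the mitochondrial ribosome, Prnp (0.92), the prion protein, LOC100040340 (0.91), 4933426M11Rik (0.91) and Gdi2 (0.90), which binds Rab GTPases. All 5 had their highest mean at ZT10, and their phases ran from 9.40 to 11.1 hr. Prnp was rhythmic and ran from 69.4 ± 1.70 rpbp at ZT10 to 45.6 ± 0.622 rpbp at ZT2, the same extremes as Rbm3. The most opposite were Plekhc1 (-0.91), a kindlin that activates integrins, Crip2 (-0.88), a LIM domain protein, and Tnfaip2 (-0.87), all rhythmic with phases from 21.5 to 21.9 hr and lowest at ZT10. Crip2 was 109 ± 8.88 rpbp at ZT2 and 38.4 ± 2.06 rpbp at ZT10, its extremes. Of the 1942 rhythmic genes, 11.3% had a phase within 1 hr of that of Rbm3 and 12.4% within 1 hr of that of Cirbp.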

How the data were processed

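Sequences of polyadenylated RNA from 12 liver samples were mapped by the authors with TopHat, after CASAVA 1.8, to mm9, and uniquely mapped sequences were kept. The deposited signal of a gene is its read coverage over the flattened exons of all isoforms, divided by exon length regardless of strand and scaled to 10000000 sequences. It was multiplied by 4 to give the 40000000 used in the study. The columns named ZT20 hold the ZT22 samples: the labels hold no ZT20 sample. The 3 result columns of the authors (F24, phase and p-value) were not used.

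F24, permutation tests (100000 random orders) and exact tests were computed in Python 3.11.15 with numpy 2.4.6, and linear models with limma 3.58.1 in R 4.3.3, on log2(rpbp + 1). p-values were adjusted by Benjamini-Hochberg over 10198 expressed genes, and the procedures were tested on simulated data. Named genes were the members, at most 4 rhythmic genes of highest F24 in each list with its defining gene, and the 5 most like and 3 most opposite to each member, of which 1 is not reported here. The members and lists were chosen with earlier results of these data known. Gene positions came from GENCODE vM1 (mm9), and promoters from RefSeq (GRCm38.p6). Alternatives were the expression minimum, median-of-ratios size factors, log scale, pseudocount, number of orders, limma, a replicate block, and samples or series left out. The set without both ZT2 samples and the alternatives of the cosine fit were chosen after seeing the data.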

Additional observations from a re-analysis of the deposited data

Results flagged for a closer look

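Among the 6 samples of the dark phase, Rbm3 of ZT14 in series 1 stood apart from the others: it was at 43.36 rpbp, while the other 5 lay between 33.3 and 36.1 rpbp. The limit that such a gap had to exceed is passed by chance in about 1 of 20 groups. The Rbm3 sample of ZT14 in series 2 was at 33.6 rpbp. Without the ZT14 sample of series 1, Rbm3 had an F24 of 0.613 (permutation p = 0.0192) and an amplitude of 1.53, and it still met the criteria for a rhythm.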

How the results depend on the processing

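The F24 call of Rbm3 kept its side under size factors, log scales, both expression minimums, 10000 orders and the replicate block (F24 0.629, permutation p = 0.0286), and was lost with limma (adjusted p = 0.0726) and without both ZT2 samples (F24 0.603). With a sample or a series left out, F24 ran from 0.546 to 0.808 for Rbm3, 0.287 to 0.582 for Cirbp and 0.582 to 0.916 for the ratio, and neither Rbm3 nor the ratio passed in 1 series alone, where 6 samples were tested. The light-dark difference of Cirbp ran from -0.038 to 0.19 and that of Rbm3 from 0.08 to 0.26. The cosine fit of Cirbp ran from 0.44 to 0.75 (log2), and that of Rbm3 from 0.43 to 0.56 and passed without ZT14 of series 2 (adjusted p = 0.0312, limma).

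The steps of Cirbp (log2, limma, the lone sample assumed to vary like the other groups) ran with 1 sample left out from -0.095 to 0.41 for ZT2 to ZT6, -0.26 to 0.26 for ZT10 to ZT14, -0.11 to 0.28 for ZT18 to ZT22 and -0.26 to 0.24 for ZT22 to ZT2. Those of Rbm3 ran from -0.52 to -0.16 for ZT10 to ZT14, -0.31 to 0.050 for ZT14 to ZT18 and -0.10 to 0.0040 for ZT18 to ZT22.

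The following are counts of genes meeting the F24 and amplitude criteria under each setting, and their overlap with the main calls was not counted. Over all expressed genes the count was 1942, and it became 512 with the adjusted p in place of the p, 828 with the adjusted p of limma, and 286 to 369 in 1 series. For the chaperones it was 13 and became 4, 6, and 2 to 3. For the targets it was 6 and became 1 to 2 in 1 series. For the relatives it was 4 and became 2 with a minimum of 16 rpbp, 1 with the adjusted p, 1 with limma, and 0 to 1 in 1 series. For the SR proteins it was 2 and became 1 with size factors, and 0 with the adjusted p, with limma, without ZT2 and in 1 series. For the cold regulators it was 0 and became 1 with size factors and 2 without ZT2. The cause of these changes was not tested. Of 316 alternatives, 271 kept the direction and the side of the threshold or, for counts, stayed within 1.5 times the main count.

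The replicate numbers share only a name: of 15 correlations across genes between the series differences of 2 time points (-0.15 to 0.21), 2 were above 0.1. With the replicate block no call of Cirbp, Rbm3 or their ratio changed. With n = 2 a time point, small differences cannot be resolved.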
